A study of Mus musculus with 6 samples.

Results

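Hepatocyte growth factor, its receptor MET, the proteases and protease inhibitors that set its activation, and 3 receptors of the EGF family were examined in hepatic RNA-seq. These 9 genes, *Hgf*, *Met*, *Hgfac*, *Hpn*, *Spint1*, *Spint2*, *Egfr*, *Erbb2* and *Erbb3*, were taken by symbol from the 24421 genes of the table, and all 9 were found. The libraries came from livers of 3 wild-type (WT) and 3 heterozygous PAI-1 deficient (*Pai-1*+/-) C57BL/6 mice, 21 weeks old by the labels, fed standard chow without restriction. The study describes males, and the heterozygotes were bred from *Pai-1*-/- and WT mice, so each heterozygote keeps a functional allele. Whole liver was used, so each value is a sum over all cell types of the organ, and fewer cells of a type cannot be told apart from less RNA per cell.

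The genotypes were not compared. The counts per animal carry animal numbers that match no sample label, so no value per mouse and no SD is given here. Every level below is of mRNA, with no protein measured here, and is the authors' mean over all libraries of both genotypes. It is given as a mean normalized count, which is a read count divided by the size factor of its library. For most comparisons between genes it is that count per kilobase of the longest annotated transcript. Some markers and scarce genes are compared by count alone, with no correction for length. Because each level is a mean over all libraries, differences between genes have no replicate error and no test. A difference between the genotypes could be present in any of them.

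HGF is a growth factor for hepatocytes that is secreted as an inactive single chain, mainly by stellate and endothelial cells in the liver. Serine proteases cut it into its active form, among them the HGF activator (*Hgfac*), hepsin (*Hpn*), matriptase (*St14*) and urokinase (*Plau*). The Kunitz inhibitors HAI-1 (*Spint1*) and HAI-2 (*Spint2*) restrain the HGF activator, hepsin and matriptase. For urokinase, the paper names PAI-1 as the main rapid inhibitor. Active HGF binds MET on hepatocytes, and the EGF receptors signal through many of the same adaptors and kinases.

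The 9 genes together took 0.125% of all mean normalized counts, which sum to 30045982, and each of them lay above a mean normalized count of 10. Of all 24421 genes, 12971 lay above that limit. The 9 genes covered a wide range of levels per kilobase. *Hpn* was the highest at 6481 and *Erbb2* the lowest at 8.09, but *Egfr* took the top place with the median transcript length and with no length correction, and *Spint1* the lowest with no length correction. Between them, in falling order of the level per kilobase, stood *Hgfac*, *Egfr*, *Spint2*, *Met*, *Erbb3*, *Hgf* and *Spint1*. The median level per kilobase of the 9 genes was 411.2, beside 128.9 for the 12499 genes with a mean normalized count above 10 and an annotated length. The upper 6 of the 9 each lay above at least 73.1% of these genes, whereas *Hgf*, *Spint1* and *Erbb2* lay above 22.7%, 12.5% and 8.70% of them.

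**Figure D1:**
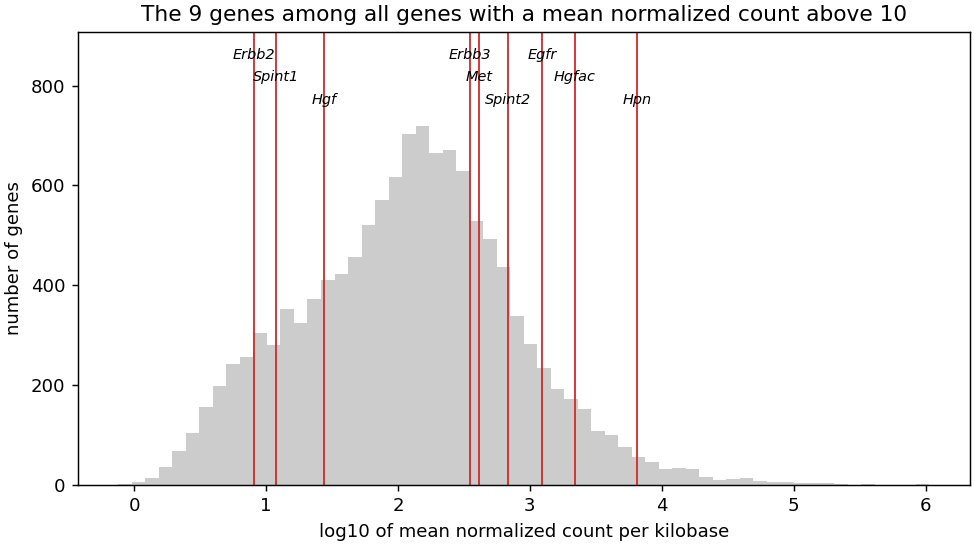
Histogram of the log10 mean normalized count per kilobase of the 12499 genes with a mean normalized count above 10, with a red line for each of the 9 genes. *Hpn* lies above 97.9% of the genes, while *Hgf*, *Spint1* and *Erbb2* lie in the lower part of the distribution.

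The mRNA of the ligand was scarce beside that of its receptor. *Hgf* (chr5:16553495-16620152 on GRCm38, plus strand, 19 exons in the longest transcript) had a mean normalized count of 96.2, or 27.7 per kilobase. That level per kilobase was higher than that of 22.7% of the genes above 10. *Met*, the receptor tyrosine kinase for HGF (chr6:17463800-17573980, plus strand, 22 exons), had a mean normalized count of 2800, or 411.2 per kilobase, above 75.9% of the genes. The level per kilobase of *Met* was 14.8 times that of *Hgf*, and the ratio lay between 14.8 and 29.1 over the 5 ways of treating length. In GENCODE M21, *Hgf* shares 484 exonic bases with *Gm43489* on the same strand. The annotation used for counting is not given, and whether the overlap affected the count of *Hgf* was not tested.

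The related ligand of the family, macrophage stimulating protein (*Mst1*), which hepatocytes secrete, stood the other way round to its receptor. *Mst1* had 2456 per kilobase, 88.5 times the level of *Hgf* (57.7 to 104.6 over the ways of treating length), while its receptor gene *Mst1r* had 3.18 per kilobase at a mean normalized count of 15.0.

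The mRNAs of both proteases that activate HGF among the 9 genes were abundant. *Hpn* encodes hepsin, a protease anchored in the cell membrane of hepatocytes (chr7:31098725-31115290, minus strand, 12 exons). Its mean normalized count was 12062, and its 6481 per kilobase placed it at rank 268 of 12499 genes. *Hgfac* encodes a protease that circulates as a zymogen (chr5:35041509-35048461, plus strand, 12 exons). Its mean normalized count was 5412, or 2186 per kilobase, above 94.0% of the genes. The level per kilobase of *Hpn* was 2.97 times that of *Hgfac*, with a range from 1.80 to 3.27 over the ways of treating length. The longest transcripts of *Hpn* and *Hgfac* are not annotated as protein coding. With their longest protein-coding transcripts, *Hpn* had 6591 and *Hgfac* 2535 per kilobase.

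The inhibitors were unequal. *Spint2* (chr7:29256323-29281912, minus strand) had a mean normalized count of 2236, or 687.7 per kilobase, above 84.1% of the genes. *Spint1* (chr2:119237362-119249527, plus strand, 10 exons) had a mean normalized count of 27.5, or 11.8 per kilobase, above 12.5% of the genes. The level of *Spint2* per kilobase was 58.1 times that of *Spint1*. The longest transcript annotated for *Spint2* has 3252 bases in 1 exon, whereas its longest protein-coding transcript has 1384 bases. On the latter length, chosen after the data were seen, *Spint2* had 1616 per kilobase and the ratio to *Spint1* was 136.4. *Hpn* exceeded *Spint2* in level per kilobase under every treatment of length, by 3.06 to 9.42 times.

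Among the EGF family receptors, *Egfr* led. *Egfr*, the receptor for EGF and TGF-alpha (chr11:16752203-16918158, plus strand, 28 exons), had a mean normalized count of 12693, the highest count of the 9 genes. Its longest transcript has 10208 bases, so its level per kilobase was 1243, above 90.2% of the genes. *Erbb3*, a neuregulin receptor with little kinase activity of its own (chr10:128567523-128589652, minus strand, 28 exons), had a mean normalized count of 2131, or 354.2 per kilobase, above 73.1% of the genes. *Erbb2*, the partner receptor without a known ligand (chr11:98412470-98437716, plus strand, 27 exons), had a mean normalized count of 40.5, or 8.09 per kilobase, above 8.70% of the genes. *Egfr* thus stood 3.51 times above *Erbb3* and 153.7 times above *Erbb2* per kilobase, the lowest values of ranges that reached 50.1 and 1938 over the ways of treating length. *Erbb2* shares 9 exonic bases with *Mien1* on the other strand, which had a mean normalized count of 858.5. The remaining receptor, *Erbb4*, had a mean normalized count of 6.61, or 0.549 per kilobase.

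**Figure D2:**
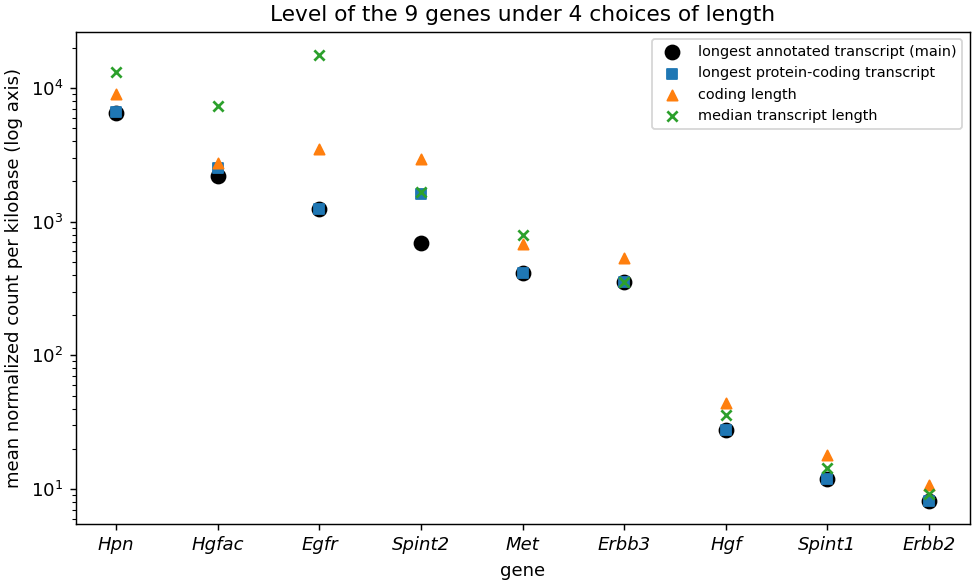
Mean normalized count per kilobase (log axis) of the 9 genes, ordered by the main length (black circles), with 3 other lengths. Every length leaves *Hgf*, *Spint1* and *Erbb2* as the 3 lowest, while the order among *Hpn*, *Hgfac*, *Egfr* and *Spint2* changes with the length used, and *Egfr* is the highest with the median length.

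The order of the levels was only partly independent of length. Of the 8 pairs of neighbours in the order, 4 kept their direction under all 5 treatments of length. These were *Hpn* over *Hgfac*, *Met* over *Erbb3*, *Erbb3* over *Hgf* and *Hgf* over *Spint1*. The order of *Hgfac* and *Egfr*, of *Egfr* and *Spint2*, of *Spint2* and *Met* and of *Spint1* and *Erbb2* turned under at least 1 of them, so these neighbours are not separated here.

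The promoters of the genes at both ends of the range were compared by sequence. RefSeq windows on GRCm38.p6 were found for 8 of the 9 genes, all but *Erbb3*, and gave 10 start sites. Only the 250 bases before each start were used. The letters GTTAAT are part of the longer site bound by the hepatocyte factor HNF1, and the whole site was not searched for. These letters stood on either strand in 4 of these 10 windows and in 6.43% of all 32851 windows. No match stood in the windows of *Hpn*, *Met*, *Spint2* and *Erbb2* or at the first start of *Hgf*. The 4 windows are shown 5′ to 3′ on the gene's strand with the match in capitals, because they span abundant and scarce genes alike. They are *Hgfac* at chr5:35041259-35041508, *Egfr* at chr11:16751953-16752202, the second start of *Hgf* at chr5:16553651-16553900 and *Spint1* at chr2:119237110-119237359, all on the plus strand.
*Hgfac*: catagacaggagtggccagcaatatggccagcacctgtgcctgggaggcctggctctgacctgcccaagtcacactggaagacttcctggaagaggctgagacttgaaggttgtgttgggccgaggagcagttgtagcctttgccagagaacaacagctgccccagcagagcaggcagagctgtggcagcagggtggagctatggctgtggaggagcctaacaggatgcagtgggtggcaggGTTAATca
*Egfr*: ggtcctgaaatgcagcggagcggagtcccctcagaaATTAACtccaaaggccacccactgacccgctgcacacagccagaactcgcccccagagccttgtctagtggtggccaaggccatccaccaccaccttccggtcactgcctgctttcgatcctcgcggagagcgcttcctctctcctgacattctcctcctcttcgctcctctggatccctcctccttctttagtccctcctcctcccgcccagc
*Hgf*, second start: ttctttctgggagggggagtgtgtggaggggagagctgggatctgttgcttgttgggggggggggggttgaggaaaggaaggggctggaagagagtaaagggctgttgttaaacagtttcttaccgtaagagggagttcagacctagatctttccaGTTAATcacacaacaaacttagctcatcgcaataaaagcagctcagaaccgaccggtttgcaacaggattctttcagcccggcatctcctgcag
*Spint1*: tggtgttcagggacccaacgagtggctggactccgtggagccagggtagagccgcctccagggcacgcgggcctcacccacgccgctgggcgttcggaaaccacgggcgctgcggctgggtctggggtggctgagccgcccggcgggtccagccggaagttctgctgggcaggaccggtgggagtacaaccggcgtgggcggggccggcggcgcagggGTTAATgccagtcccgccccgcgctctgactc

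The match began 8 bases before the start in *Hgfac*, 94 in the second *Hgf* window, 32 in *Spint1* and 214 in *Egfr*, where it lies on the other strand and reads ATTAAC. The windows also differed in CpG dinucleotides. *Hgfac* held 1, *Spint1* 26, and *Met* and *Spint2* 24 each, beside a median of 6.0 over all windows. *Erbb2* held 16, *Egfr* 11 and *Hpn* 7 at its first start and 1 at its second, while the *Hgf* windows held 4 and 5. The TATA box letters TATAAA were in 0 of the 10 windows and in 12.4% of all windows, and CCAAT was in 1, that of *Erbb2*, against 33.8% of all windows. A match describes these letters only, and binding was not measured.

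A list of 17 genes held the plasminogen system and other proteases and serpins around HGF activation. Of these, 16 had a mean normalized count above 10, beside 12971 of all 24421 genes, and 12 were above 100. The highest per kilobase were *Plg* (plasminogen) at 35982, *F2* (prothrombin) at 17814 and *Serpinf2* (the main plasmin inhibitor of plasma) at 13048. The mRNAs of the activators of plasminogen were scarce in comparison. *Plau* had a mean normalized count of 42.7 and 18.2 per kilobase, its receptor *Plaur* 18.2 and 9.05, and *Plat*, the tissue-type activator, 20.5 and 5.06.

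Other proteases of the same list were spread over this range, and not all of them are named. *F12* (coagulation factor XII) had 8651 per kilobase and *Klkb1* (plasma prekallikrein) 1151. *F11* (coagulation factor XI) had 644.8 and *Tmprss2* 40.7, against 9.14 for *St14*. The level of *Hpn* per kilobase was 709.2 times that of *St14*, with a range from 371.8 to 757.7 over the ways of treating length. The 1 gene at or under a mean normalized count of 10 was *Serpina5*, the protein C inhibitor, at 2.46.

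The EGF family ligands were measured beside the 4 receptors of the family. Of 11 ligand genes, 6 had a mean normalized count above 10, beside 12971 of all 24421 genes. The levels of all 11 summed to 319.5 per kilobase, beside 1606 for *Egfr*, *Erbb2*, *Erbb3* and *Erbb4*. The receptors' sum was 5.03 times that of the ligands, and 1.66 to 22.2 times over the ways of treating length. *Tgfa* was the highest at 153.6 per kilobase, followed by *Nrg4*, a neuregulin that binds ERBB4, at 120.5 and *Btc* (betacellulin) at 21.1. *Tgfa* and *Nrg4* each exceeded *Erbb2* and *Erbb4* in level per kilobase, and *Nrg4* stood 219.4 times above *Erbb4*, with a range from 38.2 to 430.8. *Areg*, *Epgn*, *Nrg1* and *Nrg2* had mean normalized counts between 0.354 and 3.79, and *Nrg3* was listed at 0.

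All 11 genes of the MET family and of the receptors' partners were above 10, beside 12971 of all 24421 genes. *Errfi1*, which encodes the feedback inhibitor MIG6 of the EGF receptor, was the highest of them at 18954 per kilobase and a mean normalized count of 57677. Its level per kilobase was 15.2 times that of *Egfr*, but 1.07 times with the median transcript length. *Mst1* and *Itgb1* (integrin beta 1, 1854 per kilobase) came next.

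Of the 28 adaptors and kinases downstream of MET and the EGF receptors, all 28 were above 10 and 26 above 100. Over all 24421 genes, 12971 were above 10, and the number above 100 was not computed. The median of the 28 genes was 284.5 per kilobase. The highest were the kinase genes *Map2k2* at 1248, *Araf* at 829.5 and *Akt1* at 759.2. Below a mean normalized count of 100 were *Src* at 61.1 and *Cbl*, whose product marks MET and EGFR for degradation, at 22.9.

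**Figure D3:**
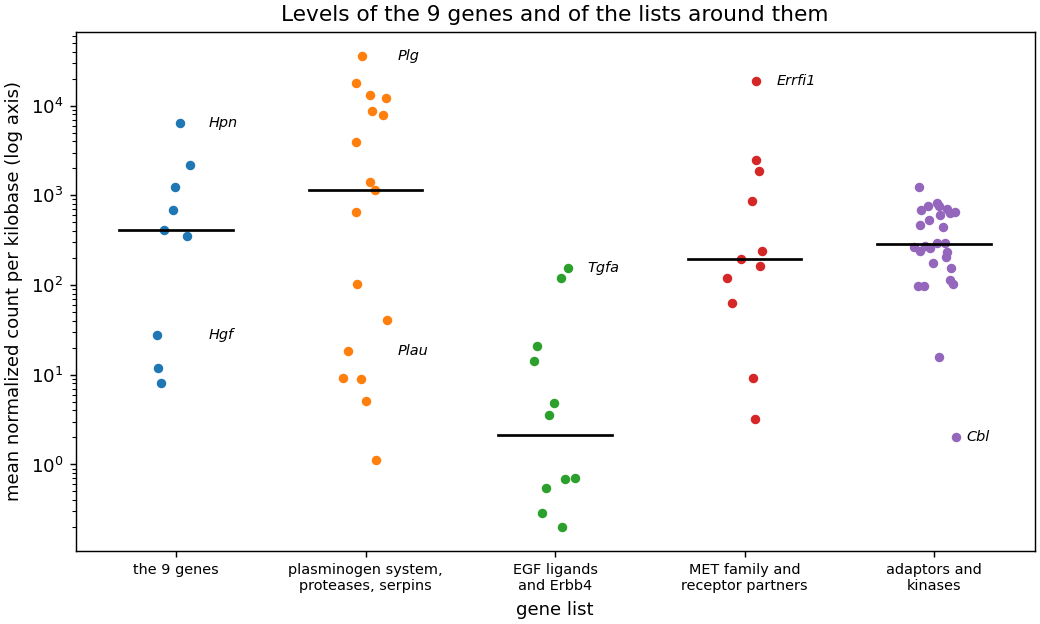
Mean normalized count per kilobase (log axis) of the 9 genes and of 4 lists around them, with 1 point per gene and a black line at the median of the list. *Nrg3*, listed at 0, is not drawn but counts in its median. *Plg* and *Errfi1* lead their lists, whereas *Plau* and *Hgf* lie below 30 per kilobase.

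The tissue label was checked against marker genes. Of 8 hepatocyte markers 7 were above a mean normalized count of 100, with *Alb* the highest at 2155546 and *Ass1* (an enzyme of the urea cycle) the lowest at 34.5. The next lowest was *Hnf4a* at 24370. Whether the reads of *Ass1* were fully counted was not tested, so its value is not taken as its true level. The 8 markers of stellate cells, which are known to secrete HGF, were all above 100, from *Pdgfrb* at 43.4 per kilobase to *Ecm1* at 1425, each above the 27.7 of *Hgf*. The 6 endothelial markers ran from *Lyve1* at 70.7 to *Clec4g* at 634.7 per kilobase, and the 6 Kupffer cell markers from *Timd4* at 79.6 to *Cd5l* at 1166. Of 6 cholangiocyte markers, all were above 10 and 2 above 100, from *Cftr* at 4.58 per kilobase to *Spp1* at 776.3. Neutrophil markers reached 137.7 per kilobase in *S100a9*, with *Mpo* the lowest at 3.18, and lymphocyte markers 15.6 in *Cd79a*, with *Cd3d* the lowest at 3.21. Which cells contributed the reads of each gene was not tested.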

How the data were processed

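Liver mRNA libraries from 3 WT and 3 heterozygous mice were sequenced as single-end reads. The authors mapped reads to mm10 with STAR, then ran DESeq2, both inside BaseSpace (RNA Express), and versions, gene annotation and strand setting are not given in the sources used here. The signal deposited by the authors is, for each gene, the average across libraries of its size-factor-normalized read count. The same table's log2 fold changes, standard errors, Wald statistics, p-values, adjusted p-values and status column hold the authors' own comparison and were not used. A table of counts has 6 per-sample columns whose animal numbers match no label, and these were not used. The planned edgeR test between genotypes could therefore not be run. With these columns unused, no depth per library, replicate error, correlated genes or confidence interval is given.

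Levels were computed per kilobase (1000 bases) of the longest transcript in GENCODE M21 on GRCm38, the assembly called mm10. Of 12971 genes with a mean normalized count above 10, 96.4% matched 1 gene by symbol. Other lengths were the median transcript, the coding length, no length and, added after the data were seen, the longest protein-coding transcript. Promoters came from RefSeq on GRCm38.p6.

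The members and lists were chosen with earlier results of these data known. Named are the 9 genes, the 3 highest genes of each pathway list per kilobase and its genes at or under 10, and the highest and lowest marker of each list. The other genes were named after their values were seen. The result of 1 gene, listed with the plasminogen system, is not reported here. Python 3.11.15, NumPy 2.4.6, pandas 2.3.3 and Matplotlib 3.10.9 were used. The length, overlap and percentile functions were checked on small constructed inputs with known answers.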

Additional observations from a re-analysis of the deposited data

How the results depend on the processing

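Of the 5 ratios between genes with related roles, all kept their direction under the 4 other treatments of length. *Met* to *Hgf* was 22.1 with the median transcript length, 15.4 with the coding length and 29.1 with no length correction. *Hpn* to *Hgfac* was 1.80, 3.27 and 2.23 under these settings and 2.60 with the longest protein-coding transcript. *Spint2* to *Spint1* was 115.7, 163.2, 81.3 and 136.4 in the same order. *Egfr* to *Erbb3* was 50.1 with the median transcript length, 6.59 with the coding length and 5.96 with none, and *Egfr* to *Erbb2* was 1938, 325.0 and 313.1. The longest protein-coding transcript left the ratios of *Met* to *Hgf*, *Egfr* to *Erbb3* and *Egfr* to *Erbb2* at their values. The median transcript of *Egfr* has 716 bases, which gives its high ratios under that setting.

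Ratios of some other pairs turned. *Hpn* to *Egfr* was 5.21 and became 0.740 with the median transcript length and 0.950 with no length correction. *Hgfac* to *Egfr* was 1.76 and became 0.410 with the median transcript length, 0.789 with the coding length and 0.426 with no length correction. *Egfr* to *Spint2* was 1.81 and became 0.770 with the longest protein-coding transcript. With no length correction *Spint2* to *Met*, at 1.67, became 0.799 and *Spint1* to *Erbb2*, at 1.46, became 0.679.

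No paired analysis was possible because no column of counts could be matched to a sample. The alternatives of normalization, count filter and leaving out a replicate belonged to the test between genotypes and were not run. With all genes above a mean normalized count of 0 as the reference, the percentiles of the 9 genes rose, to 42.6 for *Hgf* and 98.4 for *Hpn*. The percentiles also moved with length. By count with no length correction, among the genes above 10, *Met* lay above 88.4%, *Erbb3* 84.6%, *Egfr* 97.6% and *Erbb2* 13.3%. *Spint1*, at 9.57%, and *Hpn*, at 97.5%, moved lower under this setting. With a limit of 100 in place of 10, 6 of the 9 genes remained above it. The columns of counts were not used here, so depth per library and the counting error of the scarce genes are not given.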
